A study of Oryza sativa with 7 samples.

Results

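SPL2, SPL13, SPL16 and SPL18 are 4 of the 11 rice SQUAMOSA-PROMOTER BINDING PROTEIN-LIKE (SPL) genes that the study lists as targets of the microRNA miR156. They were found by their locus identifiers, which are LOC_Os01g69830 for SPL2, LOC_Os07g32170 for SPL13, LOC_Os08g41940 for SPL16 and LOC_Os09g32944 for SPL18, among the 26168 genes listed in any of the 4 deposited tables. The sequenced mRNA came from culms before elongation of seedlings grown for 20 days (mir156abckl, mir156defghi and the wild type), from embryos of fresh wet seeds taken just after seed filling (mir156abcdfghikl and the wild type), and from 2-week-old seedling shoots (mir156abcdfghikl and the wild type). All 7 groups are in the japonica cultivar Nipponbare and were sown in a paddy field, and the mutants carry CRISPR/Cas9 lesions in the MIR156 genes that their names list (5 genes in mir156abckl, 6 in mir156defghi and 10 in mir156abcdfghikl). The name mir156abcdfghikl leaves out MIR156e. The labels give mir156abcdfghikl embryos and shoots different codes and do not say whether both came from the same line. For this genotype, tissue and line therefore cannot be told apart. The tables list all 4 genes in both culm comparisons and in shoots, and 3 of them, without SPL16, in embryos.

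The SPL genes encode plant-specific transcription factors that bind DNA through the SBP domain. miR156 pairs with the transcripts of a subset of them and causes their cleavage or blocks their translation, which keeps seedlings in the juvenile phase and shapes tillering, panicle branching and grain form. In rice, SPL13 promotes grain length, SPL16 grain width, and SPL18 grain weight and grain number. The tables give the transcript level of each target in plants with lesions in many of the MIR156 genes.

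The lesions lie at the part of each MIR156 gene that encodes the mature miRNA. From the study's list of Nipponbare lines, 4 lines of mir156abckl, 12 of mir156defghi and 3 of mir156abcdfghikl were read. The paper's text reports more mir156abckl lines in Nipponbare than were read here. The line behind each sequenced group is not tied to an entry of the list. To show what such alleles look like, the first 2 alleles without a deletion mark in the first listed line of each genotype are printed on the strand of the miRNA, with the 15 bases that all 6 share in capitals.
mir156abckl MIR156a: aCAGAAGAGAGTGAGCaccacgtgg
mir156abckl MIR156b: CAGAAGAGAGTGAGCaccacacgg
mir156defghi MIR156f: gaCAGAAGAGAGTGAGCacaacagcgg
mir156defghi MIR156h: gaCAGAAGAGAGTGAGCcacacgg
mir156abcdfghikl MIR156a: aCAGAAGAGAGTGAGCacaacgtgg
mir156abcdfghikl MIR156b: CAGAAGAGAGTGAGCacaacacgg
The capitals mark a run inside mature miR156, and the letters after it differ between the alleles. No wild-type sequence is shown, so natural differences between the MIR156 genes and the lesions cannot be told apart here. Alleles with a deletion mark are not shown, so the 6 do not stand for all alleles. The miR156 sites of the 4 SPL transcripts are not shown here.

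Each table holds 1 FPKM value (read fragments scaled to transcript length and to sequencing depth) per group, which the authors computed over the 3 biological repeats that the design gives. No value per repeat was used, so no difference below has a replicate check, the authors' own test results were not used, no other test was made, and the read depth is unknown. A ratio of 2 or more, or of 0.5 or less, which is the limit of the study, serves only to count genes. The tables list between 21505 and 23581 genes. No gene was listed with both groups below 0.42 FPKM. A gene with less than that in the wild type was therefore listed only through its mutant value, and could not be lower in the mutant. Over genes that reached 1 FPKM in mutant and wild type alike, the median log2 ratio (mutant over wild type) lay between -0.03 and 0.09. The wild-type culms are the same in both culm tables, where the median gene had 0.994 times the FPKM in the table of mir156defghi that it had in the table of mir156abckl, and the 2 culm comparisons therefore share their control. The tissue labels were checked against markers. Genes described as oleosin, the coat protein of seed oil bodies, summed to 28563 FPKM in mir156abcdfghikl and 34635 FPKM in wild-type embryos, and to at most 8.06 FPKM in any culm or shoot group. OSH1, a homeobox gene of the shoot apex, had 44.6 and 43.2 FPKM in mir156abckl and mir156defghi culms and 29.9 and 29.8 FPKM in the wild-type culms of the same tables. It had 10.8 FPKM in mir156abcdfghikl and 7.18 FPKM in wild-type embryos, and was not listed in shoots. Genes described as chlorophyll A-B binding proteins, which hold the pigments of the light-harvesting antenna, were higher in the mutant in 3 of the 4 comparisons, with sums of 939 FPKM in mir156abckl and 634 FPKM in wild-type culms, 1153 FPKM in mir156defghi and 631 FPKM in wild-type culms, and 259 FPKM in mir156abcdfghikl and 96.7 FPKM in wild-type embryos. In shoots they were lower in the mutant. The part of these markers in the SPL values was not tested.

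Wild-type levels differed between the tissues in the same order for the 3 genes listed in all of them, with culms first, shoots second and embryos last. These levels come from tables that were normalized separately. SPL2 had 21.1 and 21.0 FPKM in wild-type culms (the 2 culm tables), 12.4 FPKM in shoots and 0.542 FPKM in embryos, so that shoots were 22.9 times as high as embryos. SPL13 had 9.83 and 9.78 FPKM in wild-type culms, 5.11 FPKM in shoots and 0.123 FPKM in embryos. SPL18 varied least, with 2.55 and 2.53 FPKM in wild-type culms, 2.45 FPKM in shoots and 0.948 FPKM in embryos. Its culm and shoot values differed by a factor of 1.04, and without a spread between repeats this order of the 2 tissues is not resolved. SPL16 was the lowest of the 4 where it was listed, at 0.955 and 0.950 FPKM in wild-type culms and 0.266 FPKM in shoots. Among all listed genes, wild-type SPL2 stood above 71.0% in culms and above 4.30% in embryos, while wild-type SPL16 stood above 8.40% in culms and 5.44% in shoots. In a bulk sample, fewer cells that express a gene and less of its RNA per cell cannot be told apart.

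**Figure D1:**
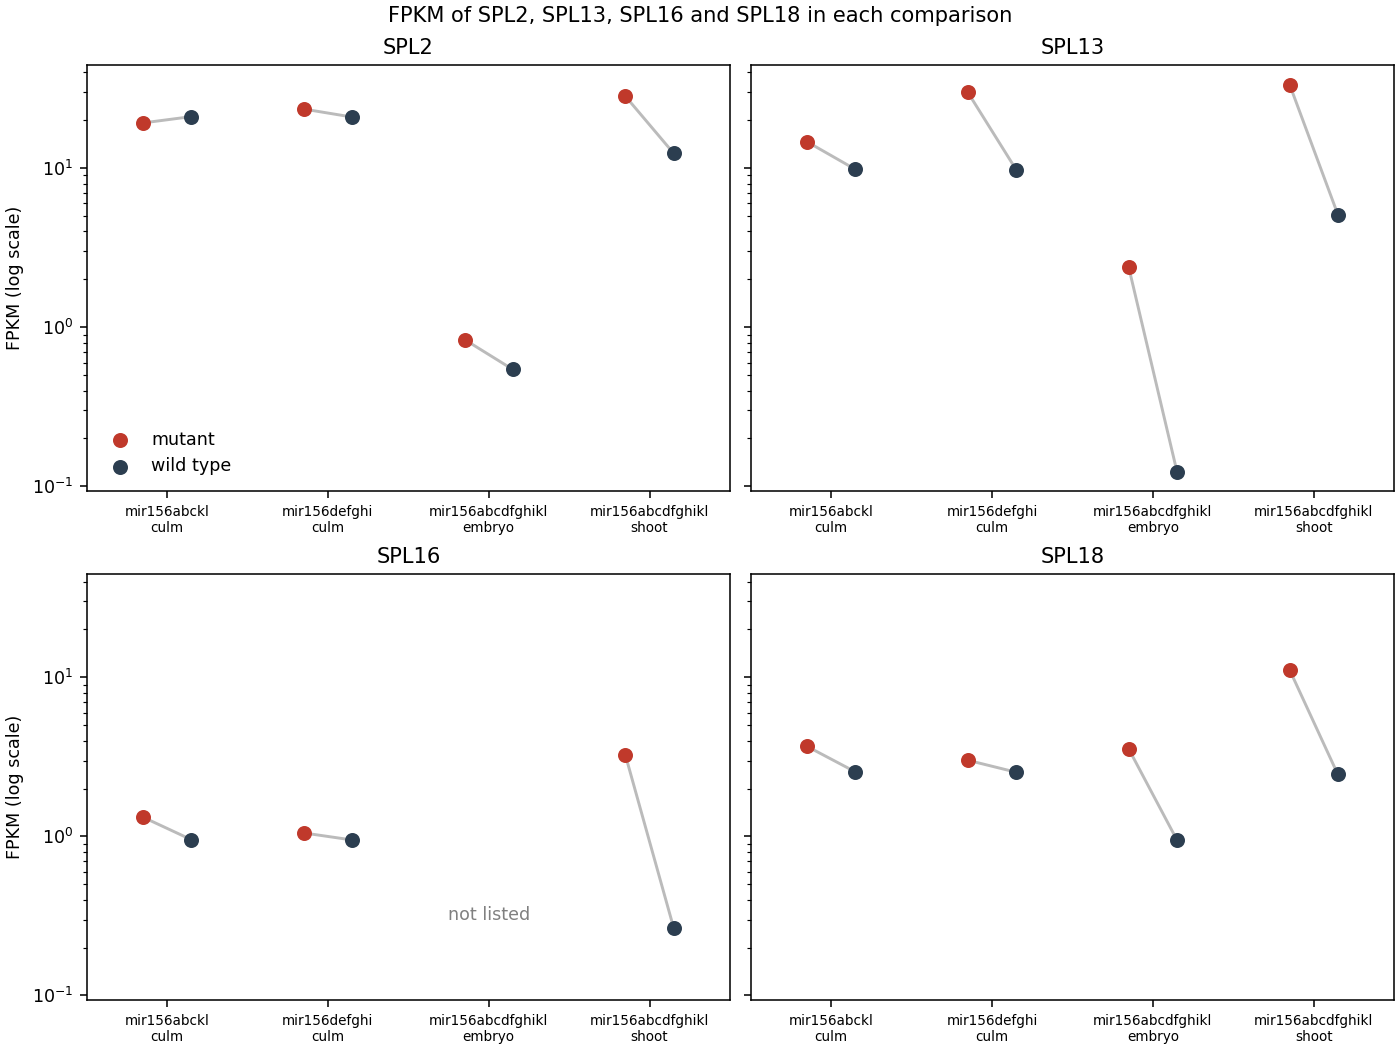
FPKM (log scale) of SPL2, SPL13, SPL16 and SPL18 in the 4 comparisons, with the mutant in red to the left of its wild type in dark blue. Points are the authors' pooled values without error, and the steepest line is that of SPL13 in embryos (2.38 FPKM in mir156abcdfghikl and 0.123 FPKM in the wild type).

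In culms of mir156abckl, 3 of the 4 genes were higher than in the wild type and 1 was lower, and 0 of 4 reached a ratio of 2. Of all genes with an FPKM above 0 in both groups, 47.9% were higher and 6.66% reached a ratio of 2. SPL13 had 14.7 FPKM in mir156abckl and 9.83 FPKM in the wild type, a ratio of 1.49 and a log2 ratio of 0.58. SPL18 had 3.68 FPKM in the mutant and 2.55 FPKM in the wild type (log2 ratio 0.53). SPL16 had 1.32 FPKM in the mutant and 0.955 FPKM in the wild type (log2 ratio 0.47). The ratios of these 3 genes were thus close to each other, and between 12.6% and 15.4% of all genes had a higher ratio. SPL2, the most abundant of the 4, had 19.2 FPKM in mir156abckl and 21.1 FPKM in the wild type, a log2 ratio of -0.13. The median log2 ratio of the 4 genes was 0.50, against -0.02 over all genes in the same comparison.

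In culms of mir156defghi, SPL13 stood apart from the other 3 genes. It had 29.9 FPKM in mir156defghi and 9.78 FPKM in the wild type, a ratio of 3.06 and a log2 ratio of 1.61. It was the only 1 of the 4 to reach a ratio of 2, which 5.72% of all genes did, and 533 of 23418 genes had a higher ratio. SPL2 had 23.5 FPKM in the mutant and 21.0 FPKM in the wild type (log2 ratio 0.17). SPL18 had 3.01 FPKM in the mutant and 2.53 FPKM in the wild type (log2 ratio 0.25). SPL16 had 1.05 FPKM in the mutant and 0.950 FPKM in the wild type (log2 ratio 0.15). All 4 were above the wild type, as 47.2% of all genes were, and between 24.3% and 32.1% of all genes had a higher ratio than SPL2, SPL16 or SPL18. Set beside each other, the log2 ratios in mir156defghi and mir156abckl were 1.61 and 0.58 for SPL13, 0.15 and 0.47 for SPL16, 0.25 and 0.53 for SPL18, and 0.17 and -0.13 for SPL2. The difference between the mutants was not tested.

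In embryos of mir156abcdfghikl, the 3 listed genes were higher than in the wild type, and 2 of them reached a ratio of 2. Of all genes, 54.5% were higher and 5.65% reached a ratio of 2. SPL13 had 2.38 FPKM in mir156abcdfghikl and 0.123 FPKM in the wild type, a ratio of 19.3 and a log2 ratio of 4.27, and 24 of 21466 genes had a higher ratio. The wild-type value exceeded that of only 0.428% of the genes listed in embryos. The ratio therefore rests on a value close to the lower end of the table. No gene was listed in embryos with both groups below 0.42 FPKM. SPL13 was thus listed only through its mutant value and could not have come out lower. Of genes with less than 1 FPKM in wild-type embryos, 26.4% reached a ratio of 2, a share that includes genes listed only through the mutant. SPL18 had 3.54 FPKM in mir156abcdfghikl and 0.948 FPKM in the wild type, a log2 ratio of 1.90, and 1.29% of all genes had a higher ratio. SPL2 had 0.837 FPKM in the mutant and 0.542 FPKM in the wild type (log2 ratio 0.62), and was below 1 FPKM in both groups. Beside these values, OSH1 and the summed chlorophyll A-B binding protein genes were also higher in the mutant embryos than in the wild type, and the oleosin genes were lower. SPL18 was the most abundant of the 3 SPL genes in embryos of either genotype, whereas SPL2 was the most abundant of the 4 in wild-type culms and shoots.

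In shoots of mir156abcdfghikl, all 4 genes were higher than in the wild type and all reached a ratio of 2. Of all genes in shoots, 54.3% were higher, 26.5% reached a ratio of 2 and 23.2% had a ratio of 0.5 or less, so that a ratio of 2 set a gene apart less than in culms and embryos. SPL13 had 33.6 FPKM in mir156abcdfghikl and 5.11 FPKM in the wild type, a log2 ratio of 2.72, and was the most abundant of the 4 in the mutant. SPL2 had 28.3 FPKM in the mutant and 12.4 FPKM in the wild type (log2 ratio 1.19), and 22.8% of all genes had a higher ratio. SPL18 had 11.1 FPKM in the mutant and 2.45 FPKM in the wild type (log2 ratio 2.18). SPL16 had 3.24 FPKM in mir156abcdfghikl and 0.266 FPKM in the wild type, a ratio of 12.2 and the highest log2 ratio of the 4 (3.61). No gene was listed in shoots with both groups below 0.445 FPKM. SPL16 was thus listed only through its mutant value and could not have come out lower. Of genes with less than 1 FPKM in wild-type shoots, 70.1% reached a ratio of 2, a share that includes genes listed only through the mutant. Of all genes, 5.83% had a higher ratio than SPL16. The median log2 ratio of the 4 genes was 2.45, against 0.14 over all genes. In the same comparison the 17 listed genes described as chlorophyll A-B binding proteins summed to 8390 FPKM in mir156abcdfghikl and 50102 FPKM in the wild type, with 0 genes listed at 0. With each group divided by its summed FPKM, which was 0.742 times as large in the mutant as in the wild type, the log2 ratios of the 4 genes lay between 1.62 (SPL2) and 4.04 (SPL16).

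**Figure D2:**
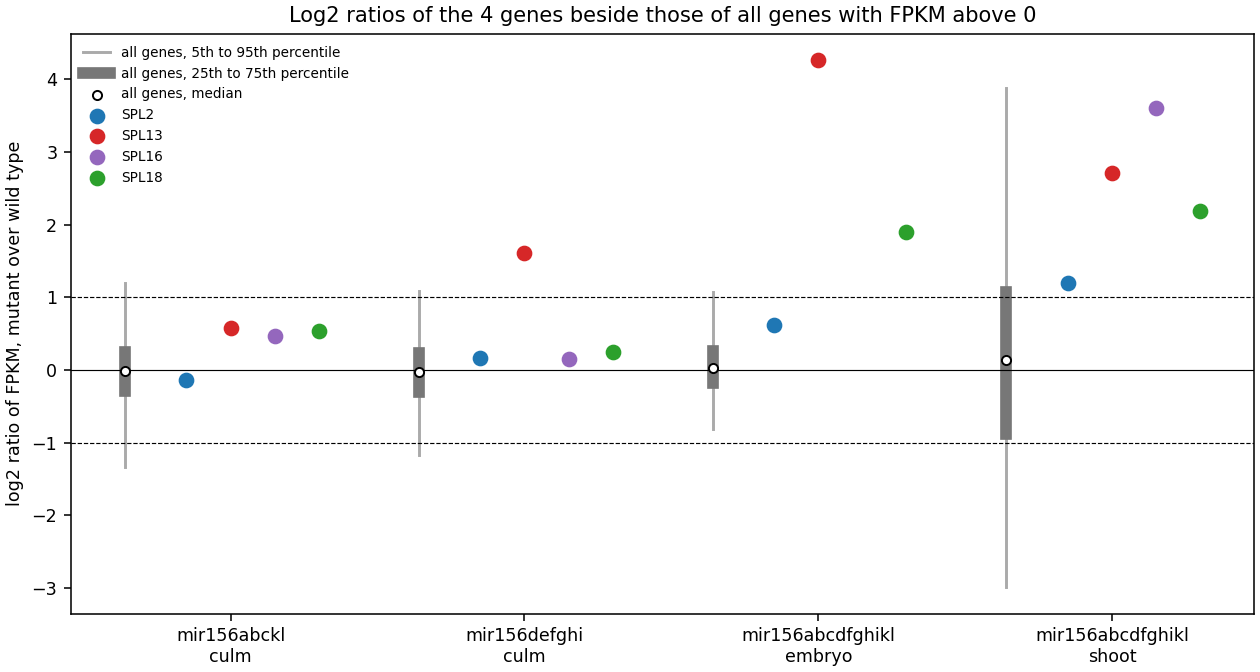
Log2 ratio of FPKM, mutant over wild type, of the 4 genes (coloured points) in the 4 comparisons, beside all genes of the same table (thick bar from the 25th to the 75th percentile, thin line from the 5th to the 95th, white point at the median). SPL13 lies above the 95th percentile in mir156defghi culms and in embryos, SPL18 in embryos, and none of the 4 lies above it in shoots, where the 95th percentile is 3.89.

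Values near 0 set the size of some of these ratios. Adding the same FPKM to both groups cannot change a direction, so the directions were not tested by it. After 1 FPKM was added to mutant and wild type, SPL13 in embryos had a log2 ratio of 1.59 in place of 4.27, and SPL16 in shoots had 1.74 in place of 3.61. SPL18 in embryos then had a log2 ratio of 1.22. For genes with higher levels the addition mattered less, as for SPL13 in mir156defghi culms (1.52) and in shoots (2.50), and SPL13 in place of SPL16 had the highest log2 ratio of the 4 in shoots. The 7 member values past a ratio of 2 stayed past it after this addition. They were 0 of 4 in mir156abckl culms, 1 of 4 in mir156defghi culms, 2 of 3 in embryos and 4 of 4 in shoots. They include SPL13 in embryos and SPL16 in shoots, which were listed there only through the mutant value. Of all genes, 3.17%, 2.65%, 1.97% and 21.4% were past it in these 4 comparisons.

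**Figure D3:**
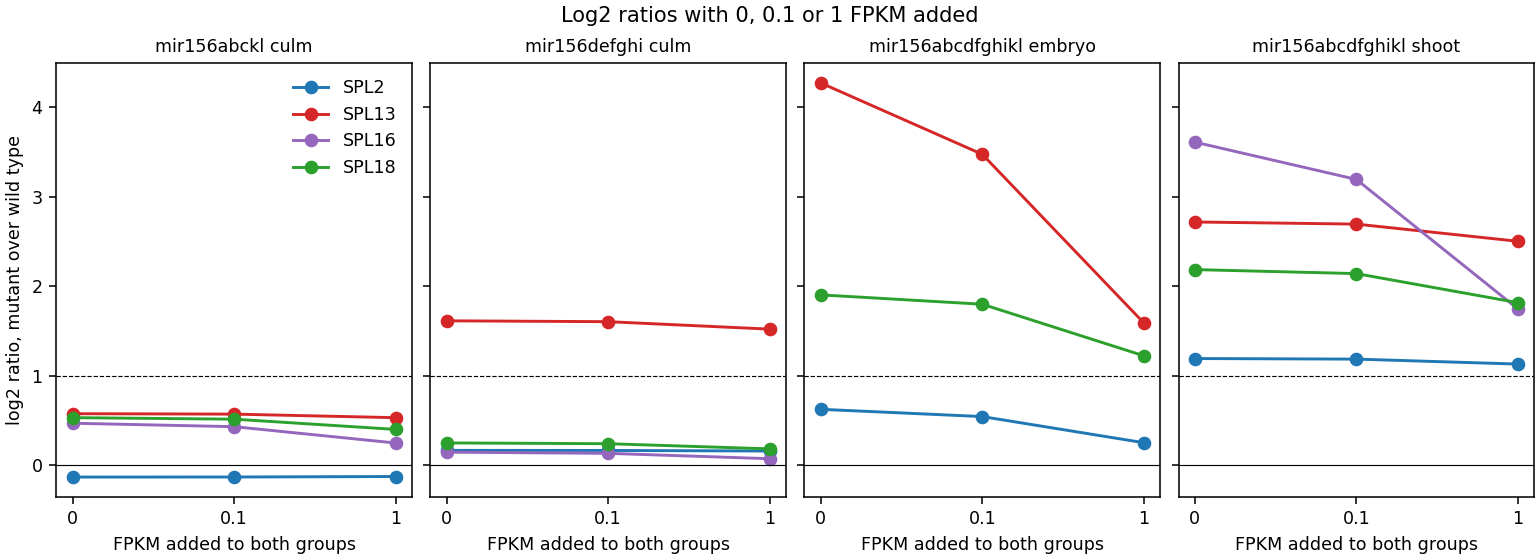
Log2 ratio of mutant over wild type for each of the 4 genes with 0, 0.1 or 1 FPKM added to both groups, in 1 panel per comparison. The lines of SPL13 in embryos (4.27, 3.47 and 1.59) and of SPL16 in shoots (3.61, 3.19 and 1.74) drop most, and none crosses the dashed line at a ratio of 2.

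The 4 genes together made up a lower share of the summed miR156 target transcripts in each mutant than in its wild type, and single genes differed in either direction. Their summed FPKM was 38.9 in mir156abckl and 34.4 in wild-type culms, 57.5 in mir156defghi and 34.2 in the wild-type culms of that table, 6.76 in mir156abcdfghikl and 1.61 in wild-type embryos, and 76.3 in mir156abcdfghikl and 20.2 in wild-type shoots. As a share of the summed FPKM of all listed target genes, this was 16.8% in mir156abckl and 17.5% in wild-type culms, 14.6% in mir156defghi and 17.5% in wild-type culms, 4.35% in mir156abcdfghikl and 4.79% in wild-type embryos, and 25.9% in mir156abcdfghikl and 27.0% in wild-type shoots. Each share comes from 1 pooled value per gene and group, and these differences were not tested. The share of SPL13 was higher in each mutant, with 7.61% of the target transcripts in mir156defghi and 4.99% in wild-type culms. In shoots it was 11.4% in mir156abcdfghikl and 6.82% in the wild type. The share of SPL2 was lower in each mutant, with 5.99% in mir156defghi and 10.7% in wild-type culms, and 9.63% in mir156abcdfghikl and 16.6% in wild-type shoots. SPL16 took at most 1.10% of the target transcripts in any group.

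Among the other 7 target genes, 6 were listed in culms and in embryos and 7 in shoots. Of all genes, 6.66%, 5.72%, 5.65% and 26.5% reached a ratio of 2 in mir156abckl culms, mir156defghi culms, embryos and shoots. In mir156abckl culms 0 of 6 reached a ratio of 2, and their median log2 ratio was 0.27, from -0.07 (SPL4) to 0.65 (SPL3). In mir156defghi culms 3 of 6 did, with a median of 0.76 and IPA1 highest at 2.28. In embryos 4 of 6 and in shoots 6 of 7 reached it, with medians of 1.52 and 2.16. SPL7 and SPL17 had 0.0813 and 0.379 FPKM in wild-type shoots and were listed there only through the mutant value. SPL13 in mir156defghi culms had a log2 ratio close to that of SPL3 (1.56) and below that of IPA1. IPA1 is the gene of SPL14 that controls plant architecture. The 8 SPL genes without a miR156 site were compared in the same way. Of all genes, 47.9%, 47.2%, 54.5% and 54.3% were higher in the mutant in mir156abckl culms, mir156defghi culms, embryos and shoots. In mir156abckl culms 3 of the 6 listed were higher and 3 lower, with a median log2 ratio of 0.01. SPL8 was highest at 2.26 (1.24 FPKM in the mutant and 0.259 FPKM in the wild type). It was listed there only through its mutant value. Of the 5 listed in mir156defghi culms 1 was higher and 4 were lower, with a median of -0.11 that became 0.015 after division by the summed FPKM. SPL19 was lowest there, with 7.64 FPKM in mir156defghi and 15.5 FPKM in the wild type (log2 ratio -1.02). It was the only 1 of the 5 at a ratio of 0.5 or less, which 6.58% of all genes had. In embryos 3 of 5 were higher and 0 reached a ratio of 2, with a median of 0.22. In shoots all 8 were listed. SPL5, with 6.12 FPKM in mir156abcdfghikl, and SPL10, with 9.68 FPKM, were listed at 0 in the wild type and have no ratio, and of the remaining 6 the median was 0.42, with 4 higher and 2 lower than in the wild type.

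**Figure D4:**
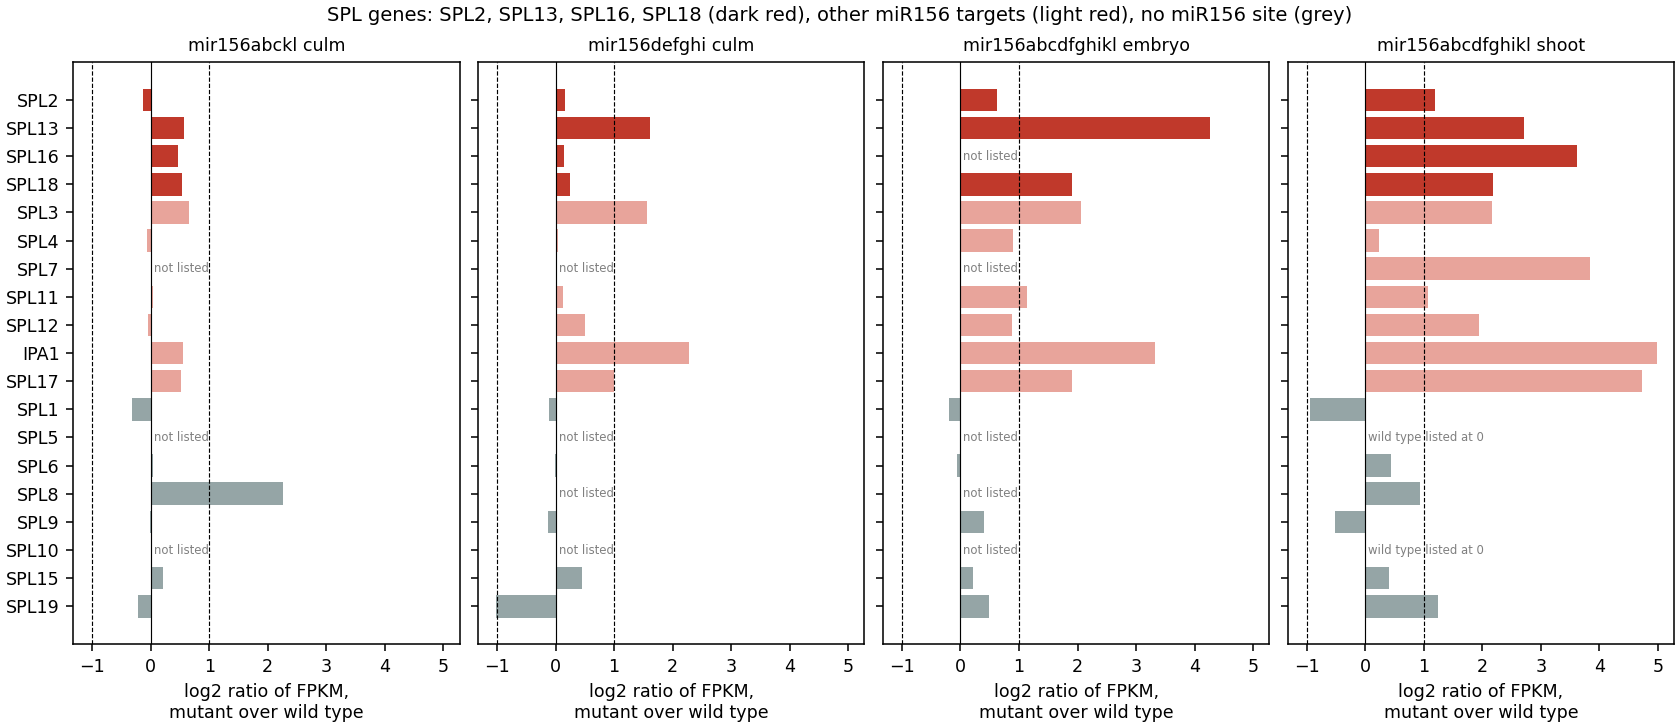
Log2 ratio of FPKM, mutant over wild type, for the 4 genes (dark red), the other 7 miR156 target genes (light red) and 8 SPL genes without a miR156 site (grey), 1 panel per comparison on a common axis, with dashed lines at ratios of 0.5 and 2. In shoots the dark red bars run from 1.19 (SPL2) to 3.61 (SPL16), and the grey bars from -0.95 (SPL1) to 1.24 (SPL19).

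For 3 of the 4 proteins, a gene whose promoter they bind is known from work in rice, and the levels of these genes are set beside them. DEP1 encodes a G-protein gamma subunit of panicle architecture and is bound by SPL18. It had 7.30 FPKM in mir156abckl and 0.965 FPKM in wild-type culms, a log2 ratio of 2.92, and 3.20 FPKM in mir156defghi and 0.959 FPKM in wild-type culms (log2 ratio 1.74). DEP1 had 10.8 FPKM in mir156abcdfghikl and 5.21 FPKM in wild-type embryos, and 41.3 FPKM in mir156abcdfghikl and 3.52 FPKM in wild-type shoots. DEP1 was thus above a ratio of 2 in all 4 comparisons, also in both culm comparisons where SPL18 was not. Its log2 ratio in embryos was 1.05 and became 0.92 with 1 FPKM added. Of all genes, 6.66% reached a ratio of 2 in mir156abckl culms, 5.72% in mir156defghi culms, 5.65% in embryos and 26.5% in shoots. Of genes with less than 1 FPKM in wild-type culms, as DEP1 had, 35.4% reached it in mir156abckl and 32.4% in mir156defghi. These last 2 shares include genes listed only through the mutant value, which DEP1 was not. SRS5 encodes an alpha-tubulin and is bound by SPL13. It had 1805 FPKM in mir156defghi and 1663 FPKM in wild-type culms, a log2 ratio of 0.12 beside the 1.61 of SPL13. In mir156abckl culms the log2 ratio of SRS5 was 0.28. In embryos SRS5 had 732 FPKM in mir156abcdfghikl and 824 FPKM in the wild type, a log2 ratio of -0.17. GW7 is a regulator of grain shape that SPL16 is known to repress. It had 9.53 FPKM in mir156defghi and 13.9 FPKM in wild-type culms, a log2 ratio of -0.55 beside the 0.15 of SPL16. In mir156abckl culms its log2 ratio was 0.22 beside the 0.47 of SPL16. In embryos, where SPL16 was not listed, it was -0.64. In shoots GW7 had 30.3 FPKM in mir156abcdfghikl and 3.23 FPKM in the wild type, a log2 ratio of 3.23 beside the 3.61 of SPL16. GW7 and SPL16 were thus both higher in the mutant shoots, unlike the known repression, and a link was not tested. SRS5 had 2239 FPKM in mir156abcdfghikl and 269 FPKM in wild-type shoots, a log2 ratio of 3.06 beside the 2.72 of SPL13. Other SPL proteins bind DEP1 too, IPA1 among them, and the values do not separate their parts.

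The genes with the most similar pattern were sought by the distance between log2 ratios (1 FPKM added to both groups) over the tables that list the member. For SPL13, SPL3 was the nearest of 17727 genes over 4 tables, with log2 ratios of 0.64 in mir156abckl culms, 1.54 in mir156defghi culms, 1.89 in embryos and 2.10 in shoots at a distance of 0.51. The values of SPL13 on that scale were 0.53, 1.52, 1.59 and 2.50. The nearest genes to SPL18 were LOC_Os09g36910, described as a bZIP transcription factor, at 0.28, LOC_Os10g33760, a No apical meristem protein, at 0.32, and LOC_Os07g39220, a BES1/BZR1 homolog, at 0.37. The nearest to SPL2 were LOC_Os12g12950 and LOC_Os11g32950, both expressed proteins, and LOC_Os12g41930, with an SRP40 domain, at distances between 0.14 and 0.16. SPL16 was compared over 3 tables only, and LOC_Os03g58930, LOC_Os03g33580 (described as a mitotic checkpoint protein) and LOC_Os02g42300 lay within 0.04. No target gene was among the 3 nearest of SPL2, SPL16 or SPL18. Each vector holds 3 or 4 values, of which the 2 from culms share their wild type, so these distances are a description.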

How the data were processed

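The authors discarded low-quality reads and those with adapters, used HISAT2 at its default settings to align reads to TIGR rice release 7, and computed FPKM with Cufflinks (version 2.2.1 per the labels). Stranded mRNA libraries were built from 3 biological repeats per group. The deposited FPKM columns hold 1 value per group over its repeats, scaled within each comparison, and are used as the authors' values without SD. The log2 ratio, p-value and q-value columns of the authors' own cuffdiff comparison were not used.

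Ratios and log2 ratios were computed from FPKM in Python 3.11.15 (pandas 2.3.3, numpy 2.4.6) over genes with FPKM above 0 in both groups, and plots with matplotlib 3.10.9. No test was made, since the FPKM columns give 1 value per group. Of the 15 member values, 14 passed a filter of at least 1 FPKM in either group, and SPL2 in embryos did not. The counting was tested on simulated data. RefSeq's gene list matched 0 of the 4 locus identifiers, and names come from the study and the gene descriptions in the files. Positions are those of the files. In TIGR release 7, SPL2 lies on chromosome 1 (40331732 to 40335718), SPL13 on chromosome 7 (19099674 to 19103294), SPL16 on chromosome 8 (26501166 to 26506218) and SPL18 on chromosome 9 (19643462 to 19648233), and 0 other listed genes overlap them. Alleles were read from the study's list of mutants. Named genes are the 4 members, the extremes of each list, the bound genes, the tissue markers and the 3 nearest genes by pattern. SPL5 and SPL10, listed at 0 in wild-type shoots, and the neighbouring genes were named after their values were seen. The members and lists were chosen with earlier results of these data known. Alternatives were 0.1 or 1 FPKM added, centring on the median, division by summed FPKM, a minimum of 1 FPKM in either group, and a ratio limit of 1.5.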

Additional observations from a re-analysis of the deposited data

Results flagged for a closer look

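SPL2 lay on opposite sides of its wild type in the 2 culm mutants, with a log2 ratio of -0.13 in mir156abckl (19.2 FPKM in the mutant and 21.1 FPKM in the wild type) and of 0.17 in mir156defghi (23.5 FPKM in the mutant and 21.0 FPKM in the wild type). Each direction rests on 1 pooled value per group, and the difference was not tested. After division by the summed FPKM the log2 ratios were -0.02 in mir156abckl and 0.29 in mir156defghi.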

How the results depend on the processing

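Of 74 alternative values of the log2 ratios of the 4 genes, 74 kept their direction and their side of a ratio of 2. Added FPKM cannot change a direction, and the minimum of 1 FPKM leaves a ratio as it was. Only centring and division by summed FPKM could have changed a direction. With 1 FPKM added, the share of all genes with a ratio of at least 2 was 3.17% in mir156abckl culms, 2.65% in mir156defghi culms and 1.97% in embryos, and with a ratio limit of 1.5 it was 12.4%, 11.5% and 11.9%. The median log2 ratio of the SPL genes without a miR156 site in mir156defghi culms was 0.015 after division by the summed FPKM, the only value to change sign. No paired analysis was possible because each group has 1 pooled value, and no repeat could be left out. The FPKM columns alone give neither an error nor the read depth, and differences of the size of those of SPL2 and SPL16 in mir156defghi culms were not set against an error here.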

Other observations

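The nearest listed genes beside the 4 SPL genes were looked up after their values had been seen. OsMADS7 (LOC_Os08g41950) begins 960 bases after the end of SPL16 on chromosome 8, and OsMADS8 (LOC_Os09g32948) begins 5154 bases after the end of SPL18 on chromosome 9, so that both of these SPL genes lie next to a MADS-box gene, a class of floral regulators. Both MADS-box genes had an FPKM above 0 in mutant and wild type alike, and so a ratio, in the embryo comparison only. OsMADS7 had 40.0 FPKM in mir156abcdfghikl and 14.1 FPKM in wild-type embryos (log2 ratio 1.51). OsMADS8 had 59.4 FPKM in mir156abcdfghikl and 25.9 FPKM in wild-type embryos (log2 ratio 1.20).

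LOC_Os01g69840, described as an expressed protein, begins 1013 bases after SPL2 and was lower in the mutant in each comparison where it has a ratio. It had 6.07 FPKM in mir156abckl and 12.4 FPKM in wild-type culms (log2 ratio -1.03), and 4.10 FPKM in mir156defghi and 12.3 FPKM in wild-type culms (log2 ratio -1.59). In shoots it had 1.23 FPKM in mir156abcdfghikl and 13.4 FPKM in the wild type (log2 ratio -3.45), where SPL2 had 28.3 FPKM in the mutant and 12.4 FPKM in the wild type. On the other side of SPL2, 44553 bases before it, LOC_Os01g69290 was higher in each mutant, with log2 ratios of 1.26 in mir156abckl culms, 0.34 in mir156defghi culms and 0.48 in embryos. In shoots it had 66.8 FPKM in mir156abcdfghikl and 1.13 FPKM in the wild type (log2 ratio 5.89). On the other side of SPL18, LOC_Os09g32940 had log2 ratios between -0.12 and 0.15 over the 4 comparisons. On the other side of SPL16, LOC_Os08g41910 had log2 ratios of 0.12, 0.05 and -0.03 in mir156abckl culms, mir156defghi culms and embryos, and of -1.30 in shoots. Beside SPL13, LOC_Os07g32230 had log2 ratios between -0.39 and -0.02 over the 4 comparisons, and LOC_Os07g32080, on the other side, had 1.27 FPKM in mir156abcdfghikl and 2.69 FPKM in wild-type embryos.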
